A study of Homo sapiens with 4 samples.

Results

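The genes that carry glucose into the cell and settle the fate of pyruvate and lactate were examined in U251 cells after knockdown of PRMT3. They comprised 10 of the 15575 genes in the count table and were taken by name: the glucose transporters SLC2A1 and SLC2A3, the hexokinases HK1 and HK2, the monocarboxylate transporters SLC16A1 and SLC16A3, the lactate dehydrogenase subunits LDHA and LDHB, and the pyruvate dehydrogenase kinases PDK1 and PDK3. All 10 passed the filter on low counts.

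U251 is an established human glioblastoma (GBM) cell line, and PRMT3 is a protein arginine methyltransferase. RNA-seq was performed on 2 libraries of U251 cells carrying a control short hairpin vector (Ctrl, named pGreen in the labels) and on 2 libraries of U251 cells in which a lentiviral short hairpin RNA targeted PRMT3 (PRMT3-KD). The cells were profiled 72 h after knockdown, and the contrast asks which transcripts change when PRMT3 is depleted. The study used 2 PRMT3 hairpins, and which of them the PRMT3-KD libraries carry is not given in the sources used here, nor is it said whether the libraries of a group came from separate cultures, so the p-values measure only the spread between these libraries, which may be technical.

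Cells take up glucose through transporters of the GLUT family, and a hexokinase then traps it as glucose-6-phosphate. At the end of glycolysis, pyruvate either enters mitochondria and is oxidised by the pyruvate dehydrogenase complex or is reduced to lactate, which leaves through a monocarboxylate transporter (MCT). Pyruvate dehydrogenase kinases phosphorylate and shut off the complex. GBM cells, like many tumour cells, are known for converting much of their glucose to lactate in the presence of oxygen, and several of these genes are textbook targets of the transcription factor HIF1A.

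Library totals were 27405629 and 27221921 counts for Ctrl, against 24804250 and 29756313 for PRMT3-KD. PRMT3 itself was counted 535 times in each Ctrl library and 77 and 45 times after knockdown, a log2 fold change of -3.08 (edgeR's quasi-likelihood test, adjusted p = 0.0177). HIF1A had 20448 and 20042 counts in Ctrl against 4973 and 8204 in PRMT3-KD, a log2 fold change of -1.60 (edgeR, adjusted p = 0.0204). Of the 7 glioma markers examined, VIM, CD44, NES, SOX2 and EGFR were well expressed, GFAP averaged 13.7 and 3.32 CPM (counts scaled to the library's TMM-adjusted total) in Ctrl and PRMT3-KD and S100B averaged 2.08 and 2.37 CPM, and none of the 7 passed the test. Among 9 markers of immune, endothelial, neuronal and oligodendrocyte cells, PTPRC, MBP and MOG averaged at most 0.361 CPM in either group. CD68 averaged 24.8 and 29.7 CPM in Ctrl and PRMT3-KD, SYT1 10.6 and 14.1 CPM, and VWF 2.21 and 1.82 CPM. CD68 and SYT1 were thus not absent, and CD68, SYT1 and VWF did not pass the test. AIF1, PECAM1 and RBFOX3 had no row under these names in the count table. The Ctrl libraries varied almost by counting error alone (biological coefficient of variation 0.0107), and the PRMT3-KD libraries varied far more (0.204), so 1 shared estimate of spread served groups that differed in spread.

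In PRMT3-KD cells SLC2A1, SLC16A3 and PDK1 fell, each by between 1.5-fold and 2-fold, and no gene of the 10 rose past the threshold. The threshold was an adjusted p under 0.05, with the Benjamini-Hochberg method over all 13172 genes tested, together with a change of more than 1.5-fold. The 3 genes that fell were thus 3 of 10, where 10.9% of all genes tested were called, 5.97% as lower and 4.97% as higher. HK1 had an adjusted p under 0.05 but changed by less than 1.5-fold, and the other 6 genes had an adjusted p above 0.05. The median log2 fold change of the 10 genes was -0.22, with 6 genes below 0 and 4 above, and the median over all genes tested was 0.0055. Values of both PRMT3-KD libraries lay outside the range of both Ctrl libraries for 8 of the 10 genes, and the same held for 67.1% of all genes tested. In bulk RNA, fewer cells of one kind and less RNA per cell cannot be told apart.

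**Figure D1:**
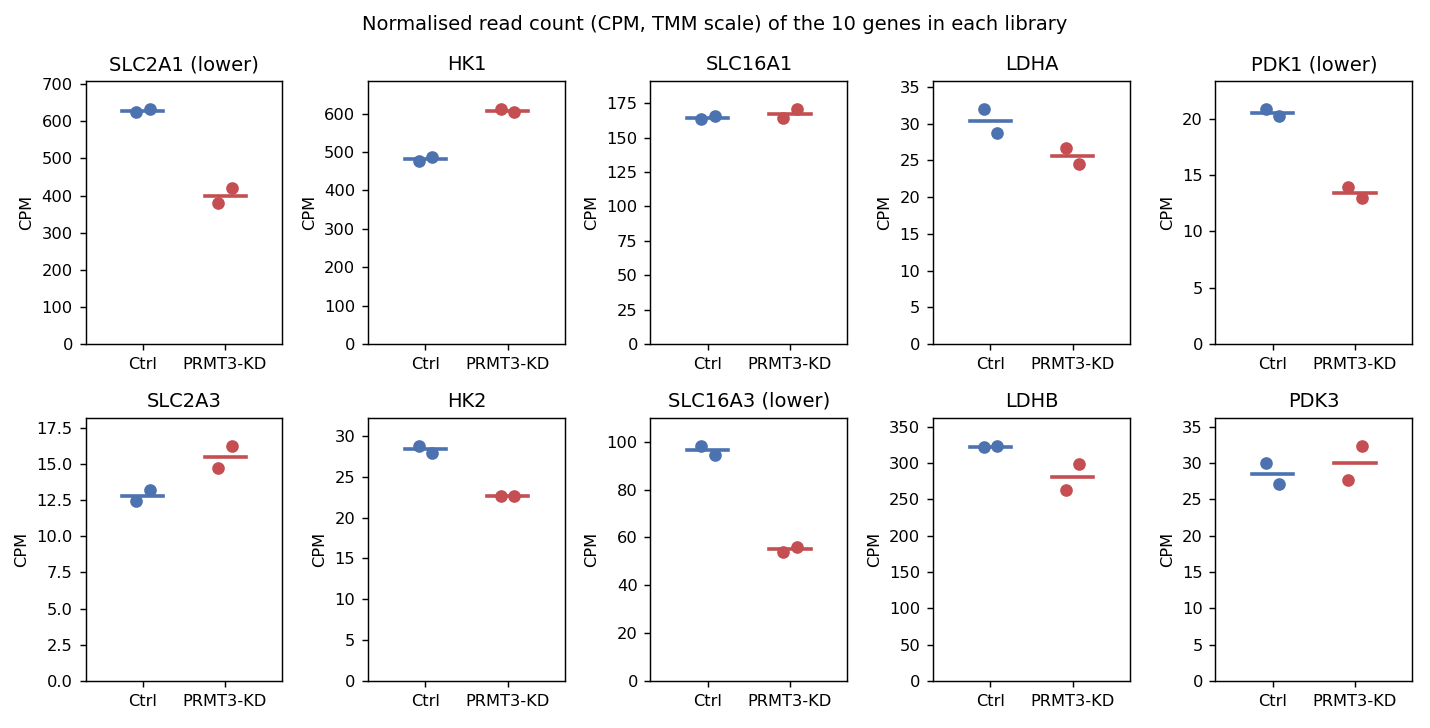
Normalised read count of each of the 10 genes in CPM on a linear axis from 0, with 1 point per library and a bar at the mean of the 2 libraries of a group. SLC2A1, SLC16A3 and PDK1, marked lower, lie well below Ctrl in both PRMT3-KD libraries, HK1 lies above Ctrl in both, and the groups overlap for SLC16A1 and PDK3.

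The sequence in front of the 3 genes that fell is shown first, beside that of LDHA, whose window at the canonical start held the most matches among the 8 genes with a RefSeq window and which did not pass the test. Each window holds 250 bases before and 50 bases after a RefSeq transcription start, is written 5′ to 3′ on the gene's own strand and is set on the start site of the gene's canonical transcript. Capitals mark the words ACGTG and GCGTG, the core of the element that HIF binds, read on both strands (CACGT and CACGC on the other), and CACGTG, an E-box, in which ACGTG is found on both strands.
SLC2A1, GRCh38.p14 chr1:42958819-42959118, minus strand: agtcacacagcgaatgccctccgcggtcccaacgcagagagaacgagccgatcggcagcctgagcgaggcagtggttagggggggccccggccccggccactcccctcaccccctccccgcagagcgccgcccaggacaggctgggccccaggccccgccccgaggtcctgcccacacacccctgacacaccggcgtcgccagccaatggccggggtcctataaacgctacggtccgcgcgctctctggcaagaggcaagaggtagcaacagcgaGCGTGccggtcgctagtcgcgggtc
SLC16A3, GRCh38.p14 chr17:82228792-82229091, plus strand: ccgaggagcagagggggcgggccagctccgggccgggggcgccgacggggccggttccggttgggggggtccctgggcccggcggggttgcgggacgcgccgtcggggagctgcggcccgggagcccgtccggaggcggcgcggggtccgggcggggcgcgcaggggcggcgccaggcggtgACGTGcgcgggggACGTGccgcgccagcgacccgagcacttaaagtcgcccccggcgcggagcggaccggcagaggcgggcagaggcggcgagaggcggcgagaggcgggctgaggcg
PDK1, GRCh38.p14 chr2:172555840-172556139, plus strand: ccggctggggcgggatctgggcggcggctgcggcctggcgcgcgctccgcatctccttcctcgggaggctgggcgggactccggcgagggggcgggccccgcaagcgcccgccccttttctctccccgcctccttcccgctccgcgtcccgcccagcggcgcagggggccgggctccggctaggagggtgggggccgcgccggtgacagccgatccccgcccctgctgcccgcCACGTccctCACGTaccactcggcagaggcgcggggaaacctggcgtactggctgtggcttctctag
LDHA, GRCh38.p14 chr11:18394313-18394612, plus strand: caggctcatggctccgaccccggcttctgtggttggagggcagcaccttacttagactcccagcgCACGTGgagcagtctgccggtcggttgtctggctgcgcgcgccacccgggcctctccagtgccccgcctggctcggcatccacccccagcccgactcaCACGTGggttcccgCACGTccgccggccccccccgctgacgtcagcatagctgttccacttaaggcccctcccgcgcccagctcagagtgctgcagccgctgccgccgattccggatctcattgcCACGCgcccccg

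The SLC2A1 window held no ACGTG and 1 GCGTG, at position 26 from the start site (negative positions lie before it). SLC16A3 held 2 copies of ACGTG, at positions -68 and -55 from the start site, and PDK1 held 2 copies, at positions -17 and -8. The LDHA window held 5 matches to ACGTG, of which 4 came from 2 copies of CACGTG, and 1 match to GCGTG. RefSeq windows were given for 8 of the 10 genes, without SLC2A3 and SLC16A1. In the window of each gene nearest to its canonical start (at that start for 7 genes, 217 bases from it for HK1), ACGTG was present for 5 of 8 genes and GCGTG for 6 of 8, and every window held one or the other. Among all 35116 RefSeq windows of this length, 21.4% held ACGTG, 36.5% held GCGTG, 48.5% held either word and 7.26% held CACGTG. That set includes windows at starts other than the canonical one, so it is unlike the 1 window taken per gene here. The windows of the 8 genes had a GC content of 59% to 82.7%, against a median of 58.7% over all windows, and the part of base composition in these matches was not tested. A match is a description of the letters and not a site of binding.

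Glucose entry was measured through SLC2A1 and SLC2A3. SLC2A1 (ENSG00000117394, GRCh37 chr1:43391024-43424564, minus strand) encodes GLUT1, the main glucose transporter of many tumour cells and of the blood-brain barrier. Counts of SLC2A1 were 17307 and 17396 in Ctrl and 9625 and 11927 in PRMT3-KD. Both knockdown libraries were lower than both controls. In CPM, SLC2A1 averaged 628.5 ± 5.5 in Ctrl and 399.3 ± 28.98 in PRMT3-KD (SD, n = 2 each), and the log2 fold change was -0.65 (SE 0.083, 95% interval -0.88 to -0.43, edgeR, adjusted p = 0.0204). Relative to the Ctrl mean, the 2 PRMT3-KD libraries stood at -0.73 and -0.58 on the log2 scale, the second of them just short of a 1.5-fold drop.

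SLC2A3 (ENSG00000059804, chr12:8071826-8171603, minus strand) encodes GLUT3, a transporter of high glucose affinity best known from neurons. It was far scarcer in these cells, with 344 and 362 counts in Ctrl against 373 and 461 in PRMT3-KD. In CPM both PRMT3-KD libraries (14.7 and 16.2) exceeded both Ctrl libraries (12.4 and 13.2). The log2 fold change of SLC2A3 was 0.27 (95% interval -0.03 to 0.58, edgeR, adjusted p = 0.167), which did not pass. SLC2A3 also shares much of its sequence with other loci: 21.1% of the 50-base words of its merged exons occur elsewhere in GRCh37, and 27.5% of those of its canonical transcript, so reads could be split with its near-identical relatives. Its closest relative SLC2A14 had at most 20 counts in any library.

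Of the counts assigned to this pair, SLC2A1 took 98.1% and 98.0% in Ctrl and 96.3% and 96.3% in PRMT3-KD. SLC2A1 therefore made up nearly all counts of the pair in every library. The log2 ratio of SLC2A1 to SLC2A3 changed by -0.93, from 5.62 ± 0.05 to 4.69 ± 0.003 (SD, n = 2 each). Such a ratio is taken within a library and needs no scaling factor. How often ratios of other gene pairs do not overlap between groups was not computed. Among single genes tested, 67.1% did not overlap, so a lack of overlap is not particular to these pairs. An exact permutation test of 2 against 2 libraries cannot give a two-sided p below 0.33, and 0.33 was obtained for this pair.

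Glucose phosphorylation was measured through HK1 and HK2. HK1 (ENSG00000156515, chr10:71029740-71161640, plus strand) encodes the broadly expressed hexokinase of brain and most other tissues. Its counts were 13190 and 13394 in Ctrl and 15526 and 17150 in PRMT3-KD. Both knockdown libraries were higher than both controls by nearly the same amount, 0.34 and 0.33 on the log2 scale. HK1 averaged 481 ± 7.7 CPM without and 607 ± 5.3 CPM with knockdown (SD, n = 2 each), and its log2 fold change was 0.34 (SE 0.067, 95% interval 0.16 to 0.51, edgeR, adjusted p = 0.0409). This is a 1.26-fold difference, under the 1.5-fold threshold.

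HK2 (ENSG00000159399, chr2:75061254-75120486, plus strand) encodes the inducible hexokinase that many tumours express. It had 797 and 769 counts in Ctrl and 575 and 644 in PRMT3-KD. Both PRMT3-KD libraries were lower in CPM (22.6 and 22.7) than both Ctrl libraries (28.8 and 28.0). The log2 fold change of HK2 was -0.32 (95% interval -0.56 to -0.09, edgeR, adjusted p = 0.0695), and it did not pass. In all, 13.1% of the 50-base words of HK2 exons occur elsewhere in the genome, which holds 1 annotated HK2 pseudogene.

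HK1 thus stood above Ctrl and HK2 below it in both knockdown libraries. HK1 took 94.3% and 94.6% of the pair's counts in Ctrl and 96.4% and 96.4% in PRMT3-KD. Their log2 ratio rose from 4.09 ± 0.05 to 4.74 ± 0.01 (SD, n = 2 each), a difference of 0.66 with no overlap between groups (exact permutation p = 0.33, the smallest possible).

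Lactate transport was measured through the carriers SLC16A1 and SLC16A3. SLC16A3 (ENSG00000141526, chr17:80175810-80219005, plus strand) encodes MCT4, the carrier known for lactate export from glycolytic cells. It had 2723 and 2604 counts in Ctrl and 1370 and 1591 in PRMT3-KD. Of the 10 genes, it had the lowest fold change and the smallest adjusted p. Its level was 96.5 ± 2.6 CPM in Ctrl against 55.0 ± 1.5 in PRMT3-KD (SD, n = 2 each), with a log2 fold change of -0.81 (SE 0.074, 95% interval -1.01 to -0.61, edgeR, adjusted p = 0.0156). Both PRMT3-KD libraries, at -0.84 and -0.78 relative to the Ctrl mean, were beyond 1.5-fold.

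SLC16A1 (ENSG00000155380, chr1:113454469-113500215, minus strand) encodes MCT1, a carrier that moves lactate and pyruvate in either direction across the membrane. Its counts were 4531 and 4555 in Ctrl and 4168 and 4847 in PRMT3-KD. On the CPM scale the groups overlapped, with 163.5 and 165.6 in Ctrl and 164.1 and 170.6 in PRMT3-KD. The log2 fold change of SLC16A1 was 0.02 (95% interval -0.16 to 0.21, edgeR, adjusted p = 0.828), an interval that leaves out a 1.5-fold change in either direction.

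The balance between both carriers therefore moved while SLC16A1 stayed near its control level. SLC16A1 took 62.5% and 63.6% of the counts of the pair in Ctrl (exact binomial 95% intervals 61.3% to 63.6% and 62.5% to 64.7%) and 75.3% and 75.3% in PRMT3-KD (74.1% to 76.4% and 74.2% to 76.3%). These intervals cover counting error only. The log2 ratio of SLC16A1 to SLC16A3 changed by 0.84, from 0.77 ± 0.05 to 1.61 ± 0.001 (SD, n = 2 each), again with the smallest exact permutation p of 0.33. CSNK1D lies across SLC16A3 on the opposite strand over 5.22% of its exon bases and SLC16A1-AS1 across SLC16A1 over 3.64%. The same kind of overlap covers 7.51% of SLC2A1 exon bases (an unnamed long noncoding RNA), 2.998% of PDK1 (PDK1-AS1) and 0.713% of HK1, and without a stated strand setting reads of such partners cannot be told apart.

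The interconversion of pyruvate and lactate was measured through LDHA and LDHB, which encode the subunits of the lactate dehydrogenase tetramer. LDHA (ENSG00000134333, chr11:18416107-18429972, plus strand) encodes the muscle-type subunit, usually linked to lactate formation. It had 885 and 790 counts in Ctrl and 678 and 697 in PRMT3-KD. Both PRMT3-KD libraries lay below both Ctrl libraries in CPM (26.7 and 24.5 against 31.9 and 28.7), but the difference did not pass (log2 fold change -0.24, 95% interval -0.53 to 0.04, edgeR, adjusted p = 0.176).

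LDHB (ENSG00000111716, chr12:21788276-21910791, minus strand) encodes the heart-type subunit, usually linked to lactate use. It had 8908 and 8900 counts in Ctrl and 6665 and 8471 in PRMT3-KD. The PRMT3-KD libraries differed from one another (262.3 and 298.2 CPM) but both lay below Ctrl (321.5 and 323.6 CPM). With a log2 fold change of -0.20 (95% interval -0.44 to 0.04, edgeR, adjusted p = 0.182), LDHB did not pass either.

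LDHA and LDHB stood at like distances below Ctrl, and their ratio was the one pair ratio of the 5 whose groups overlapped. LDHA made up 9.04% and 8.15% of the pair's counts in Ctrl and 9.23% and 7.60% in PRMT3-KD. The log2 ratio differed by -0.04 (exact permutation p = 1), less than the spread within either group. Counts of LDHA are uncertain, because 14.8% of the 50-base words of its canonical transcript occur elsewhere in the genome, which holds 6 annotated LDHA pseudogenes. For LDHB the share was 3.95%, with 3 pseudogenes, and an overlapping protein-coding gene on the same strand covers 33.4% of its exon bases.

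**Figure D2:**
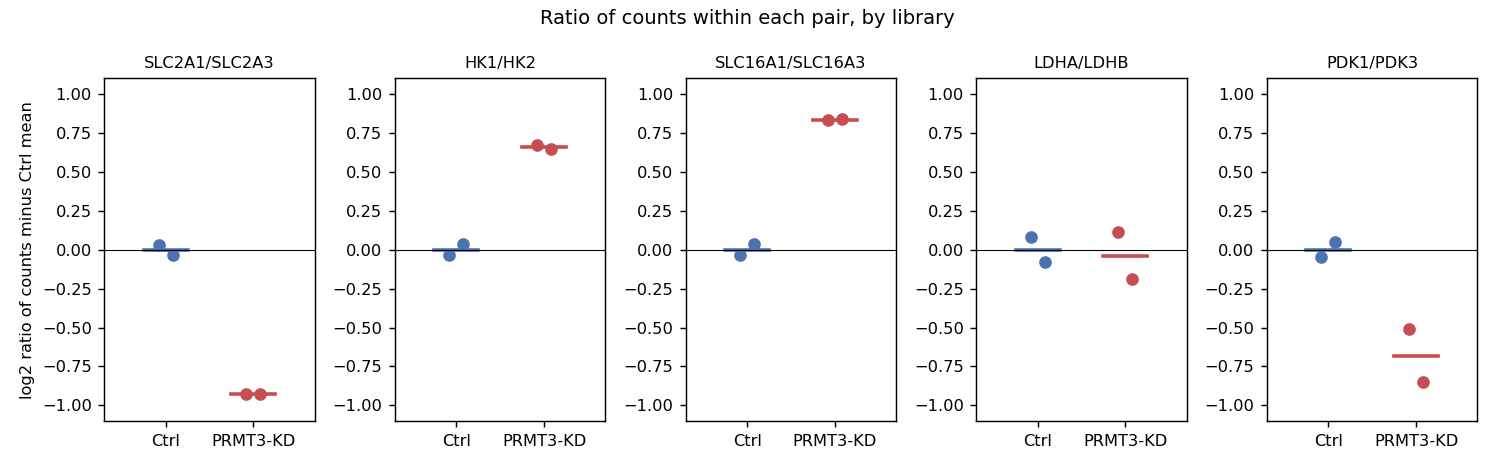
Log2 ratio of counts within each of the 5 pairs, 1 point per library, drawn as the distance from the Ctrl mean of that pair, with a bar at each group's mean. Ratios moved by -0.93, 0.66, 0.84 and -0.68 for SLC2A1/SLC2A3, HK1/HK2, SLC16A1/SLC16A3 and PDK1/PDK3 with no overlap of groups, and LDHA/LDHB overlapped. The share of other gene pairs without overlap was not computed, and 67.1% of single genes tested did not overlap.

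The switch on pyruvate oxidation was measured through PDK1 and PDK3. PDK1 (ENSG00000152256, chr2:173420101-173473397, plus strand) encodes a kinase that inactivates pyruvate dehydrogenase. It had 577 and 556 counts in Ctrl and 354 and 367 in PRMT3-KD. Both knockdown libraries were lower than both controls, at -0.56 and -0.67 relative to the Ctrl mean. Its level was 20.5 ± 0.43 CPM in Ctrl against 13.4 ± 0.72 in PRMT3-KD (SD, n = 2 each), with a log2 fold change of -0.61 (SE 0.103, 95% interval -0.89 to -0.34, edgeR, adjusted p = 0.0306). That change is only slightly more than 1.5-fold.

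PDK3 (ENSG00000067992, chrX:24483361-24568583, plus strand) encodes a second kinase of the complex. It had 830 and 746 counts in Ctrl and 701 and 919 in PRMT3-KD. The groups overlapped in CPM, with 29.96 and 27.1 in Ctrl and 27.6 and 32.3 in PRMT3-KD. The log2 fold change of PDK3 was 0.07 (95% interval -0.26 to 0.40, edgeR, adjusted p = 0.709).

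PDK1 took 41.0% and 42.7% of the counts of this pair in Ctrl and 33.6% and 28.5% in PRMT3-KD. The log2 ratio of PDK1 to PDK3 changed by -0.68, from -0.47 ± 0.07 to -1.15 ± 0.24 (SD, n = 2 each, exact permutation p = 0.33). It was the least even of the 4 shifts, since the PRMT3-KD libraries differed by more than the Ctrl libraries did.

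**Figure D3:**
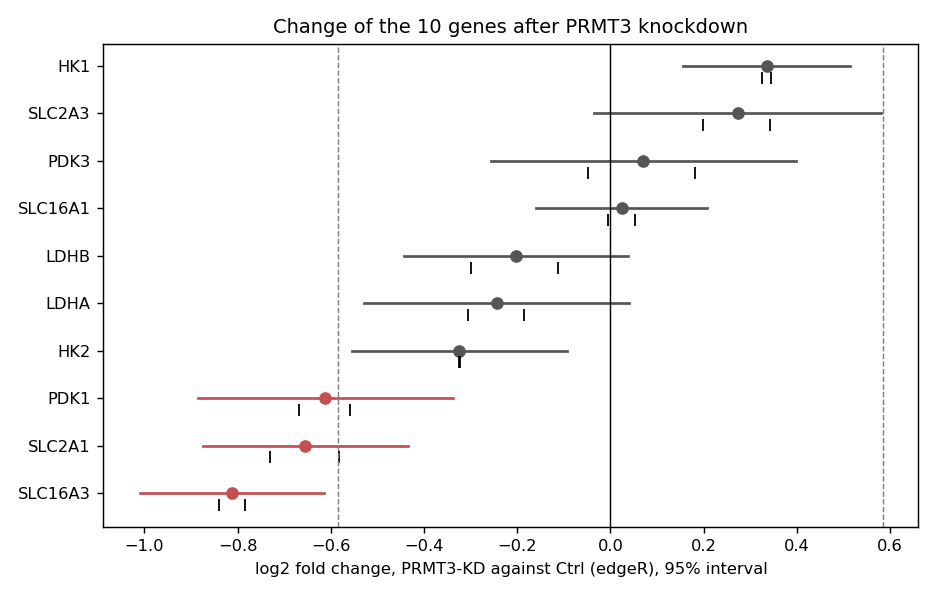
Log2 fold change of each of the 10 genes, PRMT3-KD against Ctrl, with its 95% interval from edgeR. Short ticks under each point are the PRMT3-KD libraries relative to the Ctrl mean, dashed lines mark 1.5-fold, and red marks SLC16A3 (-0.81), SLC2A1 (-0.65) and PDK1 (-0.61), which passed the threshold.

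The calls of the 3 genes depended on which libraries were used. With either Ctrl library left out, edgeR called 0 genes of the whole table, and 1842 or 1868 genes had an unadjusted p under 0.05; SLC2A1, SLC16A3 and PDK1 kept fold changes of -0.66 and -0.65, -0.78 and -0.84, and -0.59 and -0.63 there. Without PRMT3-KD library 1, SLC2A1 stood at -0.58, and without PRMT3-KD library 2, PDK1 stood at -0.56, each less than a 1.5-fold change. SLC16A3 stood at -0.78 without PRMT3-KD library 1 and at -0.84 without PRMT3-KD library 2, both beyond 1.5-fold. In those fits the spread came from the Ctrl libraries alone, which varied almost by counting error. Passing the test there is therefore no check of a call.

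Levels were compared between genes per kilobase of merged exon, which is a level and not a difference. In Ctrl, LDHB ranked highest at 108 CPM per kb, followed by SLC2A1 at 95.03, HK1 at 70.0, SLC16A1 at 25.9 and SLC16A3 at 10.4. The remaining 5 were LDHA at 5.03, HK2 at 4.79, SLC2A3 at 1.76, PDK3 at 1.63 and PDK1 at 1.38 CPM per kb. LDHA and HK2 differed by less than the SD of LDHA (0.378), and SLC2A3 and PDK3 differed by about 1 SD, so these neighbours cannot be ordered. In PRMT3-KD the top of the order changed: LDHB stood at 94.0 ± 8.5, HK1 at 88.3 ± 0.76 and SLC2A1 at 60.4 ± 4.4 CPM per kb (SD, n = 2 each), so that HK1 was above SLC2A1, and HK1 and LDHB differed by less than the SD of LDHB. LDHB exceeded LDHA 21.5-fold per length in Ctrl, 15.5-fold by the longest transcript and 18.3-fold by the canonical transcript. The low LDHA level, its rank and this ratio rest on counts that could be split with its pseudogenes, since how reads with several matches were counted is not stated, and the part of this in the LDHA level was not tested. Such levels depend on the exon length chosen: with the canonical transcript PDK3 reached 16.4 CPM per kb in Ctrl, above LDHA at 13.5. In PRMT3-KD that length put LDHB at 215 ± 19.5 and HK1 at 169 ± 1.5 CPM per kb (SD, n = 2 each). The near tie of HK1 and LDHB was thus seen with merged exons but not with the canonical transcript.

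The wider pathway was described with 43 other genes of glucose uptake, hexose phosphorylation, lactate transport and pyruvate use, of which 33 were tested. Of these 33, 4 rose and 3 fell, and 26 did not pass, against the same 10.9% called over all genes tested. Their median log2 fold change was 0.11. Of the 7, PDHB passed neither with the replicate block (0.58) nor with library totals (0.55) nor with limma-voom (0.58), each under 1.5-fold, and ARRDC4 did not pass with the block (0.64, adjusted p = 0.0549, edgeR). Without PRMT3-KD library 2, PDHB (0.43) and ARRDC4 (0.54) were under 1.5-fold. HK3 and GPT had at most 2 counts in any library and were not tested. SLC2A4, SLC5A1, EMB, LDHC, LDHD, LDHAL6A and LDHAL6B had no row under these names in the count table.

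Among the 5 other glucose transporters tested, none passed, and their log2 fold changes ran from -0.42 (SLC2A6) to 0.45 (SLC2A12). Of the 4 genes of glucose phosphorylation and glucose-6-phosphate, 2 fell. ADPGK, which phosphorylates glucose with ADP, had 2298 and 2243 counts in Ctrl and 1371 and 1246 in PRMT3-KD, a log2 fold change of -0.75 (edgeR, adjusted p = 0.0296). SLC37A4, which carries glucose-6-phosphate into the endoplasmic reticulum, had 553 and 532 counts against 282 and 250, a log2 fold change of -0.98 (edgeR, adjusted p = 0.0261). Both had PRMT3-KD counts well below Ctrl.

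Of the monocarboxylate carriers and their helper proteins, SLC16A4 rose. This relative of the lactate carriers, whose substrates are poorly known, had 293 and 266 counts in Ctrl and 503 and 869 in PRMT3-KD, a log2 fold change of 1.32 (95% interval 0.67 to 1.96, edgeR, adjusted p = 0.0352). SLC16A7, which encodes MCT2, stood at 0.57 (adjusted p = 0.104), and BSG, the chaperone that brings MCT1 and MCT4 to the membrane, at 0.19 (adjusted p = 0.227), and neither passed edgeR's test. The carrier that fell, SLC16A3, and the carrier that rose, SLC16A4, thus belong to 1 gene family, while SLC16A1 overlapped between groups.

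Around the pyruvate dehydrogenase complex, 2 genes of the pathway list passed and both rose, whereas PDK1, given above, fell. PDP2, a phosphatase that reverses the action of the PDK kinases, had 655 and 670 counts in Ctrl and 1037 and 1209 in PRMT3-KD, a log2 fold change of 0.80 (edgeR, adjusted p = 0.0182). PDP1, the other phosphatase listed, stood at 0.26 (edgeR, adjusted p = 0.246) and PDPR at -0.27 (edgeR, adjusted p = 0.0618), and neither passed. PDHB, the beta subunit of the first enzyme of the complex, had 2789 and 2828 counts against 3491 and 4792, a log2 fold change of 0.59 (edgeR, adjusted p = 0.0421), which is at the 1.5-fold line. The other 4 subunit genes did not pass; of these DLD had an adjusted p of 0.0369 (edgeR) at a log2 fold change of 0.36, and the 5 values ran from 0.04 (PDHA1) to 0.59 (PDHB). PDK2 and PDK4, the remaining kinases, stood at -0.03 and 0.50 with 95% intervals of -0.32 to 0.25 and -0.63 to 1.63, and PDK4 had at most 23 counts in any library.

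Entry of pyruvate into mitochondria gave no call. MPC2, a subunit of the mitochondrial pyruvate carrier, stood at -0.42 (edgeR, adjusted p = 0.056) and MPC1, its partner, at -0.17 (adjusted p = 0.592). Among 7 regulators of glucose uptake, ARRDC4 rose and TBC1D4 fell. ARRDC4 is an arrestin-like protein known to restrain glucose uptake and had 731 and 614 counts in Ctrl and 901 and 1148 in PRMT3-KD, a log2 fold change of 0.64 (edgeR, adjusted p = 0.0426). TXNIP, its better known relative, stood at 0.34 (edgeR, adjusted p = 0.207) and did not pass. TBC1D4, which holds GLUT4 vesicles inside the cell until insulin acts, had 1058 and 1070 counts against 445 and 456, a log2 fold change of -1.20 (edgeR, adjusted p = 0.0142).

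**Figure D4:**
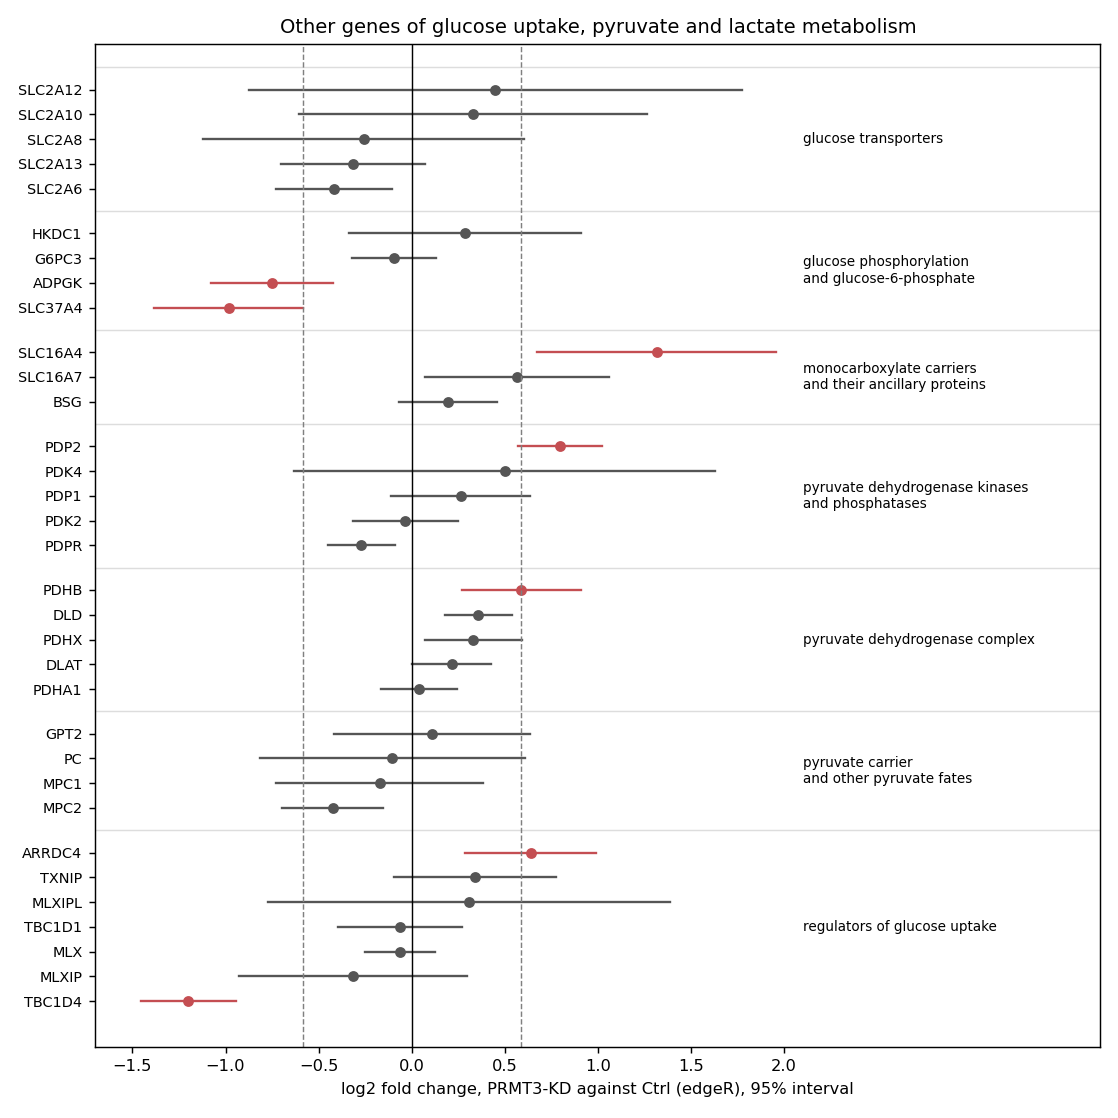
Log2 fold change with 95% interval from edgeR for the 33 other pathway genes tested, grouped by role, with dashed lines at 1.5-fold and the 7 genes past the threshold in red. SLC16A4 (1.32) and PDP2 (0.80) are the highest of those in red and TBC1D4 (-1.20) and SLC37A4 (-0.98) the lowest.

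One short word in the 3′ untranslated regions was looked up among the 10 genes because earlier results of these data had drawn notice to it. CAGCTCA occurs once in the 3′ UTR of SLC2A1 and once in that of PDK1, shown here in capitals with the bases beside it, and in none of the other 8 canonical transcripts, SLC16A3 included.
SLC2A1, GRCh37 chr1:43391246-43391252, minus strand: atctctaaagaCAGCTCAtcctcctcctt
PDK1, GRCh37 chr2:173470172-173470178, plus strand: tggtgtgatctCAGCTCAgtgcagcgtct

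The coordinates are those of the word itself. The word is present in the 3′ UTR of 17.4% of the 12755 genes that had one. Genes with the word had a median log2 fold change of -0.11, against 0.03 for genes without it. Because earlier results of these same data led to the word, these medians are no independent check of it. They also take no account of the length of the 3′ UTR. The 3′ UTR of PDK1 is 12700 bases long in its canonical transcript and that of SLC2A1 1688 bases. Those of the genes without the word ran from 200 bases (LDHB) to 2418 bases (HK2), with 350 bases for PDK3. Transcripts other than the canonical ones were not searched. The part of this word in the fall of SLC2A1 and PDK1 was not tested.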

How the data were processed

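RNA-seq of total RNA from U251 cells was deposited as 1 table of raw read counts per gene for 2 Ctrl and 2 PRMT3-KD libraries. Per the labels and the study's methods, the authors aligned reads to hg19 with TopHat at default settings and took unnormalised counts from Cufflinks. Tool versions, gene annotation and strand setting are not given in the sources used here, and default alignment can spread or drop reads of near-identical copies. The table had 15576 rows, 1 of them a duplicate that was removed.

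Counts were tested with edgeR 4.0.16 (R 4.3.3; quasi-likelihood, TMM scaling, filterByExpr with a minimum count of 10), with Benjamini-Hochberg adjustment over 13172 genes. Standard errors came from the log2 fold change and its F statistic. DESeq2 1.42.0, limma-voom with variance weights by group (limma 3.58.1), other scalings, filters and fold thresholds, a replicate block and leaving out each library were alternatives. The procedures were tested on simulated data in which all libraries had the same spread. That test cannot show how they behave when the groups differ in spread, as they did here. Exon lengths, overlaps and words came from GRCh37 with GENCODE 44, in which 99.9% of identifiers were found, and promoter windows from RefSeq. One gene of the pathway list is not reported here. The comparison of protein sequences planned for each pair was not made.

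The 10 genes, the pathway list and all tests were chosen with earlier results of these data known. Named were all 10 genes, pathway genes past the threshold, those untested, PRMT3 and HIF1A; other pathway genes and markers given with values were named after their values were seen. The Ctrl libraries differed slightly more than counting error (chi-square per degree of freedom 1.42, against 63.6 in PRMT3-KD) and were kept as 2 samples.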

Additional observations from a re-analysis of the deposited data

How the results depend on the processing

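Over the 8 alternatives that kept all 4 libraries and the threshold, SLC2A1 and SLC16A3 passed in 8 and PDK1 in 7. Of the 80 member results, 78 kept direction and side of the threshold. The exceptions were PDK1 under the replicate block (-0.61, adjusted p = 0.0523, edgeR) and SLC16A1 scaled by library totals only (-0.0076). HK1 kept a log2 fold change of 0.30 to 0.34, with adjusted p from 0.0184 to 0.110. The replicate numbers are not stated to pair libraries: deviations of same-numbered libraries correlated at 0.0222, and the block gave 1464 calls against 1441, with PRMT3 at -3.11 (adjusted p = 0.0124, edgeR). For the pair ratios a block cannot change the difference of means (-0.93 for SLC2A1/SLC2A3 in both), so it is no check of them. Of the pathway list, 5 genes passed with the block against 7, without PDHB and ARRDC4, and 6 passed with library totals or limma-voom, without PDHB. DESeq2 called 1837 genes and limma-voom 1690. The limma-voom fit let the groups differ in variance, with weights that rest on 2 libraries each. SLC2A1, SLC16A3 and PDK1 passed there (limma-voom, adjusted p = 0.00196, 0.00312 and 0.0397).

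Without a fold threshold 2278 genes passed, and at 2-fold 512 genes and 0 of the 10 did (edgeR), since no fold change of the 10 reached 2-fold; 3 of the 10 had an unadjusted p under 0.05 with over 1.5-fold, and DESeq2 also called 3. Leaving out 1 library at a time gave 0 to 3066 genes, 0 to 2 of the 10 and 0 to 11 of the pathway list. The 0 arose without either Ctrl library, where the spread came from PRMT3-KD libraries alone; at an unadjusted p under 0.05 and over 1.5-fold, there were 2 or 3 of the 10 and 6 of the pathway list, and no other tool was run there. PRMT3 ranged from -3.61 to -2.68, SLC16A1 from -0.0087 to 0.054, PDK3 from -0.053 to 0.18 (-0.0002 without Ctrl library 2) and LDHA/LDHB from -0.19 to 0.12. A lone library was taken to vary like the other group. A lone PRMT3-KD library thus took the spread of Ctrl, near counting error, and calls made there are no check. Exon length moved every level per length, most for PDK3 (1.63 to 16.4 CPM per kb); the canonical length was added after seeing the data. The 95% intervals of LDHA and LDHB include 0, and changes under 1.5-fold cannot pass the threshold at any depth.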
